A study of Mus musculus with 12 samples.

Results

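The 47 cell cycle and mitosis genes described here were chosen as a named list of proliferation genes and found on the array through the platform's gene symbols. The list holds 6 genes of G1 (the cyclins D and E and E2f1), 13 genes of S phase and 28 genes of mitosis. A probe with values was present for 42 of them, namely 6 of G1, 12 of S phase and 24 of mitosis, among 12006 named genes and 18861 features tested in all. Pcna, Ccnb1, Cdc25c, Kif20a and Foxm1 were not analysed here, and Cdk1 was found under its older symbol Cdc2a. Of the 42 genes, 41 had a value in all 6 papillomas, and Birc5 lacked one in c-Fos-deficient specimen 9.

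Papillomas were taken from the tail skin of 6 mice. Specimens 6, 8 and 9 came from c-Fos-deficient mice, in which both Fos alleles were deleted in the epidermis, and specimens 2, 3 and 5 from c-Fos-floxed mice, whose Fos alleles carried loxP sites and were active. All 6 mice were SOS+, that is, they carried an active form of Sos, an activator of Ras, under the keratin 5 promoter of basal keratinocytes on a mixed genetic background of 129/Ola, C57BL/6, CBA, LVA and B6C3F1. The sources used here do not name the Cre line that drove the deletion, the sex or the age of the mice, and other cells of a papilloma, such as those of the stroma, would keep Fos. Papilloma RNA was hybridised on 2 arrays with exchanged dyes against a reference RNA pooled from 11 mouse cell lines, and the mean of the 2 arrays was the value of a specimen. A value is a log2 ratio of papilloma over reference, called a level below, and a difference is c-Fos-deficient minus c-Fos-floxed. A level sets a gene against its own amount in the reference, so an order of levels is no order of abundance between genes. The number of arrays, from 3 mice per group, limits the precision.

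A cell that divides passes from G1 into S phase, when cyclin D and cyclin E kinases free the E2F factors, which switch on the genes of DNA replication. The genes of mitosis follow later and are held down in resting cells by the DREAM complex, which binds the cell cycle homology region (CHR) of their promoters, while CCAAT boxes bind the activator NF-Y. In normal epidermis dividing cells lie in the basal layer and in hair follicles, and cells stop dividing as they move up and differentiate. Fos is a subunit of AP-1, a transcription factor downstream of Ras that has long been studied in skin tumours.

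The promoters of Mcm5, Bub1b, Cenpa and Hmmr are shown because these are the 4 members with an unadjusted p under 0.05 between the genotypes, described further below. The sequences are from RefSeq (GRCm38.p6) and run 5′ to 3′ from 250 bases before to 50 bases from the start of the gene. Mcm5 lies at chr8:75109259-75109558 on the plus strand, Bub1b at chr2:118597961-118598260 on the plus strand, Cenpa at chr5:30666636-30666935 on the plus strand and Hmmr at chr11:40733388-40733687 on the minus strand. Capitals mark matches, on either strand, to the E2F motif TTTNNCGC, the CHR letters TTTGAA or TTCGAA, and the CCAAT box (CCAAT, or ATTGG on the other strand).
Mcm5: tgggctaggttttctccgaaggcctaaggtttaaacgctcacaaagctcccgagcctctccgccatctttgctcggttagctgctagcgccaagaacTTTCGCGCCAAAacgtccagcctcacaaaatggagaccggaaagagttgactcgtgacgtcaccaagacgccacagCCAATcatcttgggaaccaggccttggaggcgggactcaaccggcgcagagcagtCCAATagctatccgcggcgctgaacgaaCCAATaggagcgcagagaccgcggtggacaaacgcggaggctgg
Bub1b: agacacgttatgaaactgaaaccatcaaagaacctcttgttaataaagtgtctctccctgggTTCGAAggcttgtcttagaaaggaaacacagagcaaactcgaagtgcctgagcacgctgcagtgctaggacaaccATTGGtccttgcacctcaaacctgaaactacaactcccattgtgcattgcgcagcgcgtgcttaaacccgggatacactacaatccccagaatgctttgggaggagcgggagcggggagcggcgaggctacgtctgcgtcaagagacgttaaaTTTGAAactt
Cenpa: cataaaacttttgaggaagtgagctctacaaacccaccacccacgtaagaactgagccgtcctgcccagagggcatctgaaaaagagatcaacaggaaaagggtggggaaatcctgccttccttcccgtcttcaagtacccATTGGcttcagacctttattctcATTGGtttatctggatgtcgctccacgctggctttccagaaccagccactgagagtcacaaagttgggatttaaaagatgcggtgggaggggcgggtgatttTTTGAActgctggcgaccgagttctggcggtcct
Hmmr: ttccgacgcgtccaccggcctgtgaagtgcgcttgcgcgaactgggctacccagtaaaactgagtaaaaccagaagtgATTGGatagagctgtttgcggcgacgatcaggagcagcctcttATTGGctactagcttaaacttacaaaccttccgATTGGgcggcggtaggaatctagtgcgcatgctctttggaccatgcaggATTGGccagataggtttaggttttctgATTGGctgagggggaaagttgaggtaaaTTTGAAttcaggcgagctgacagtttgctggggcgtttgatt
The S phase gene Mcm5 held 2 overlapping E2F matches, 1 on each strand, and 3 CCAAT boxes, but no CHR letters. The 3 mitotic genes each held CHR letters near the start, at position 40 in Bub1b, 16 in Cenpa and 8 in Hmmr (counting the start base as 0), downstream of 1, 2 and 5 CCAAT boxes in that order, and none held the E2F motif. Bub1b had a second CHR match far upstream, at -188.

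Promoters were listed for 36 of the 47 genes, and where a gene had several, the first was read. CHR letters were found in 17 of 22 mitotic promoters (77.3%) and in 2 of 11 S phase promoters, against 19.4% of the 27025 promoters of all genes. A CCAAT box was found in 19 of 22 mitotic promoters (86.4%) and 8 of 11 S phase promoters, against 37.9% of all. The E2F motif was found in 6 of 11 S phase promoters (54.5%) and 1 of 22 mitotic ones, against 5.27% of all. The 3 G1 promoters listed, of Ccnd3, Ccne1 and E2f1, held no CHR letters, CCAAT box or E2F motif. The AP-1 motif TGANTCA, a site that Fos and Jun bind together, was found in 0 of 36, against 7.93% of all. Other forms of the AP-1 site were not searched for, so the promoters may hold them. These counts describe letters in a window and say nothing about binding in the papillomas.

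The genotype was checked first on Fos itself. Fos had levels of -4.01, -4.43 and -3.91 in the c-Fos-deficient specimens 6, 8 and 9, against -1.30, -0.56 and -1.56 in the c-Fos-floxed specimens 2, 3 and 5. The groups did not overlap, and the difference was -2.98 (SE 0.293). Its adjusted p was 0.183 in limma with Benjamini-Hochberg adjustment over all features, so even Fos did not pass the threshold of 0.05, and its exact two-sided permutation p was 0.1, the smallest that 3 against 3 specimens allow. With all 12 arrays in the fit and the specimen as a random block, its adjusted p was 0.00124. That limma fit takes the 2 arrays of a mouse as correlated values, so its p-values draw partly on repeat arrays of the same 6 mice. The markers matched keratinocyte tissue: all 7 basal and all 7 differentiated keratinocyte markers tested were higher in papilloma than in reference RNA, with medians of 2.93 and 5.38.

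Proliferation genes as a group were lower in the papillomas than in the cell-line reference. All 42 levels were below 0, and 38 were lower in limma at an adjusted p under 0.05 (90.5%), against 42.7% of all features. None was higher, against 37.7% of all features. The median level of the 42 genes was -1.16, a 2.23-fold lower ratio, beside -0.07 over all features and -0.15 over all named genes. The level was under -1 in 28 of 42, against 17.0% of all features. The pool's own spread does not enter this test, since the reference was a single RNA pool. For these lower levels, fewer dividing cells and less RNA per cell cannot be told apart in bulk tissue.

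The 3 roles lay close together. G1 genes had a median level of -1.50 with 5 of 6 lower, S phase genes of -1.15 with 10 of 12 lower, and mitotic genes of -1.26 with 23 of 24 lower. The lowest levels were those of Mcm2, a subunit of the replicative helicase, at -2.54 (SE 0.245, adjusted p of 0.000318 in limma, 5.82-fold lower), and E2f1, the activating E2F factor, at -2.43 (SE 0.158, adjusted p of 7.30e-05). The cyclin Ccnd3 at -2.38, the mitotic kinase Plk1 at -2.34, the helicase subunit Mcm6 at -2.32 and the spindle midzone protein Prc1 at -2.06 followed, each with a limma adjusted p between 6.38e-05 and 0.00134. Mki67, the gene of the Ki-67 antigen used to stain dividing cells, had a level of -1.30 (SE 0.0631, adjusted p of 2.69e-05 in limma, 2.47-fold lower). Cdk1, the kinase that starts mitosis, was at -1.23 and Top2a, the topoisomerase that untangles chromosomes, at -0.74.

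**Figure D1:**
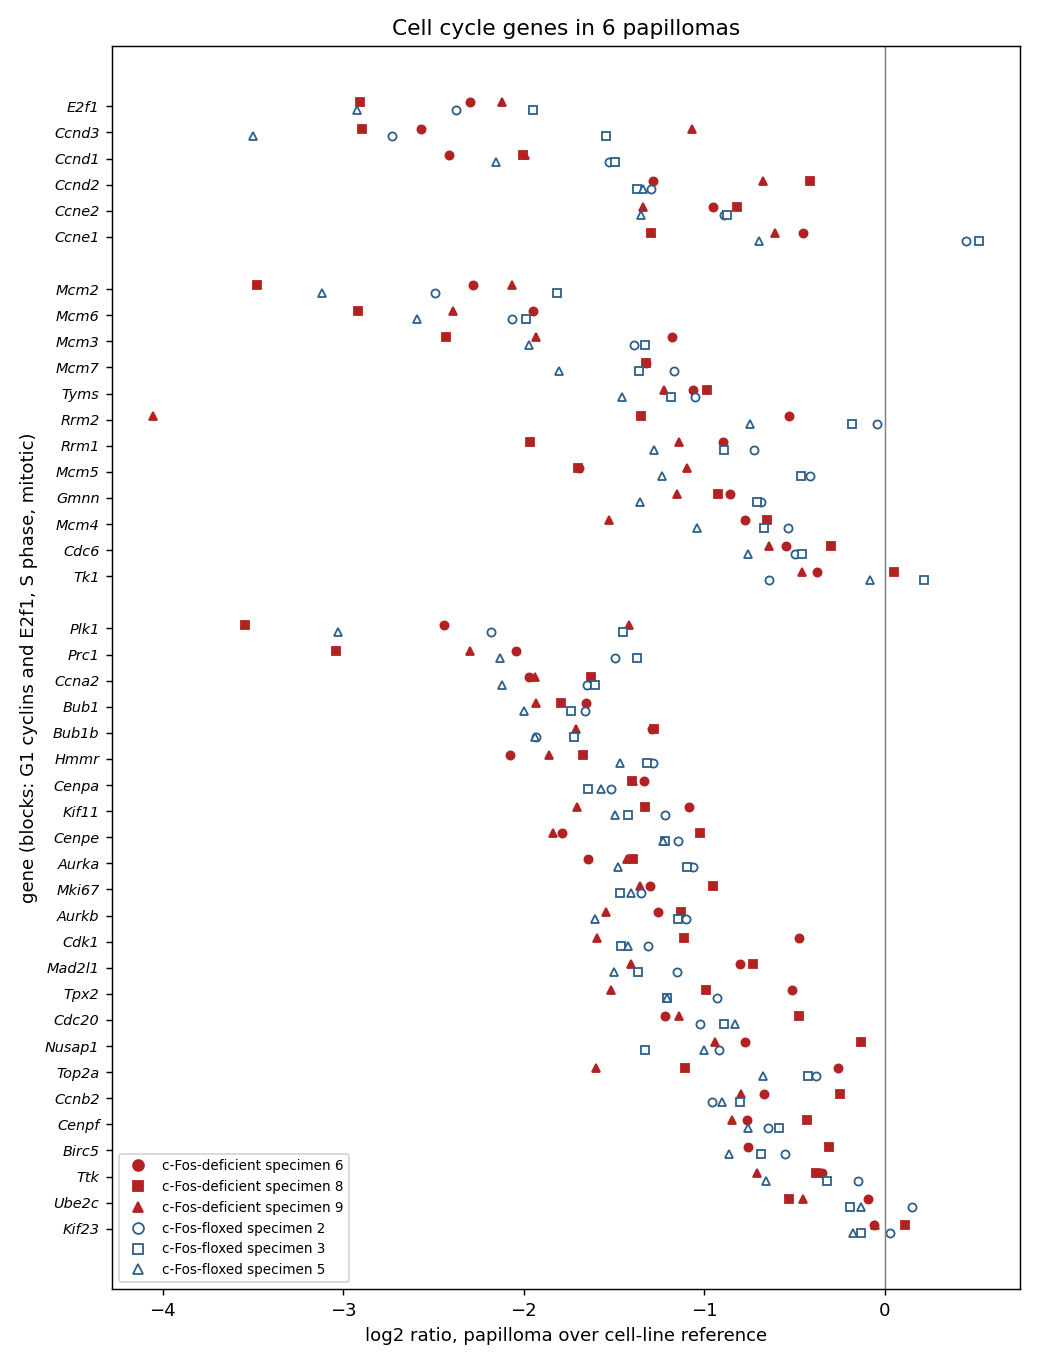
The log2 ratio of papilloma over reference RNA (horizontal axis) of 42 genes (rows, in blocks of G1, S phase and mitosis, each sorted by level) in 3 c-Fos-deficient papillomas (filled red) and 3 c-Fos-floxed papillomas (open blue), 1 marker shape per specimen. Nearly all points lie left of 0, the red and blue points overlap in 36 of the 41 complete rows, and the red triangle of Rrm2 at -4.05 is far from the rest.

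At the other end, 4 genes were not called lower. Kif23, a kinesin of the cleavage furrow, had a level of -0.05, with -0.06, 0.12 and -0.05 in c-Fos-deficient specimens and 0.03, -0.13 and -0.18 in c-Fos-floxed ones (adjusted p of 0.405 in limma). Tk1, the thymidine kinase of the salvage pathway, was at -0.21 (adjusted p 0.172), Ccne1 at -0.35 (adjusted p 0.160) and Rrm2 at -1.15 (adjusted p 0.0595, limma). Ube2c, the ubiquitin-conjugating enzyme of the anaphase-promoting complex, was just inside the threshold at -0.21, with an adjusted p of 0.0499 in limma. Its levels were -0.09, -0.53 and -0.45 in c-Fos-deficient and 0.15, -0.19 and -0.13 in c-Fos-floxed specimens, so 1 of 6 lay above 0.

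These small levels depended on the dye. With the papilloma in Cy5 alone, Kif23 (0.26), Ube2c (0.29) and Tk1 (0.15) lay above 0, and the first 2 of these were called higher than the reference. With the papilloma in Cy3 alone they were at -0.35, -0.70 and -0.58. The median of the 42 levels was -1.07 in Cy5 and -1.32 in Cy3, while that of all features was -0.00 and -0.15, so the position of the group below the array as a whole was present in both orientations.

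Between the genotypes, no cell cycle or mitosis gene differed at an adjusted p under 0.05 in limma. The count was 0 of 42, and 0 of 18861 over all features (0%), with adjusted p-values of the 42 genes between 0.245 and 0.998. At an unadjusted p under 0.05 there were 4 of 42 (9.52%), beside 11.9% of all features: Hmmr and Mcm5 with lower values in c-Fos-deficient papillomas, Bub1b and Cenpa with higher ones. The groups did not overlap for 5 of the 41 genes with values in every specimen (12.2%), beside 20.0% of all features, so the genes separated the genotypes no more often than the array as a whole. The fit to arrays with the papilloma in Cy3 called 1 feature and the fit with a random specimen block called 392, but again 0 of the 42 members, among which Hmmr had the smallest adjusted p at 0.0797.

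The differences were small and ran both ways. Of the 42, 24 lay below 0 and 18 above, with a median of -0.03 beside 0.03 over all features. The difference was under 0.5 in size for 36 of 42 and over 1 for 1, Rrm2. The range within a group exceeded the difference between the group means in 38 of the 41 complete genes. The median of the 41 complete genes averaged -1.24 ± 0.15 in c-Fos-deficient and -1.24 ± 0.15 in c-Fos-floxed papillomas (SD, n = 3 each). In bulk tissue the share of dividing cells and the RNA per cell cannot be told apart.

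**Figure D2:**
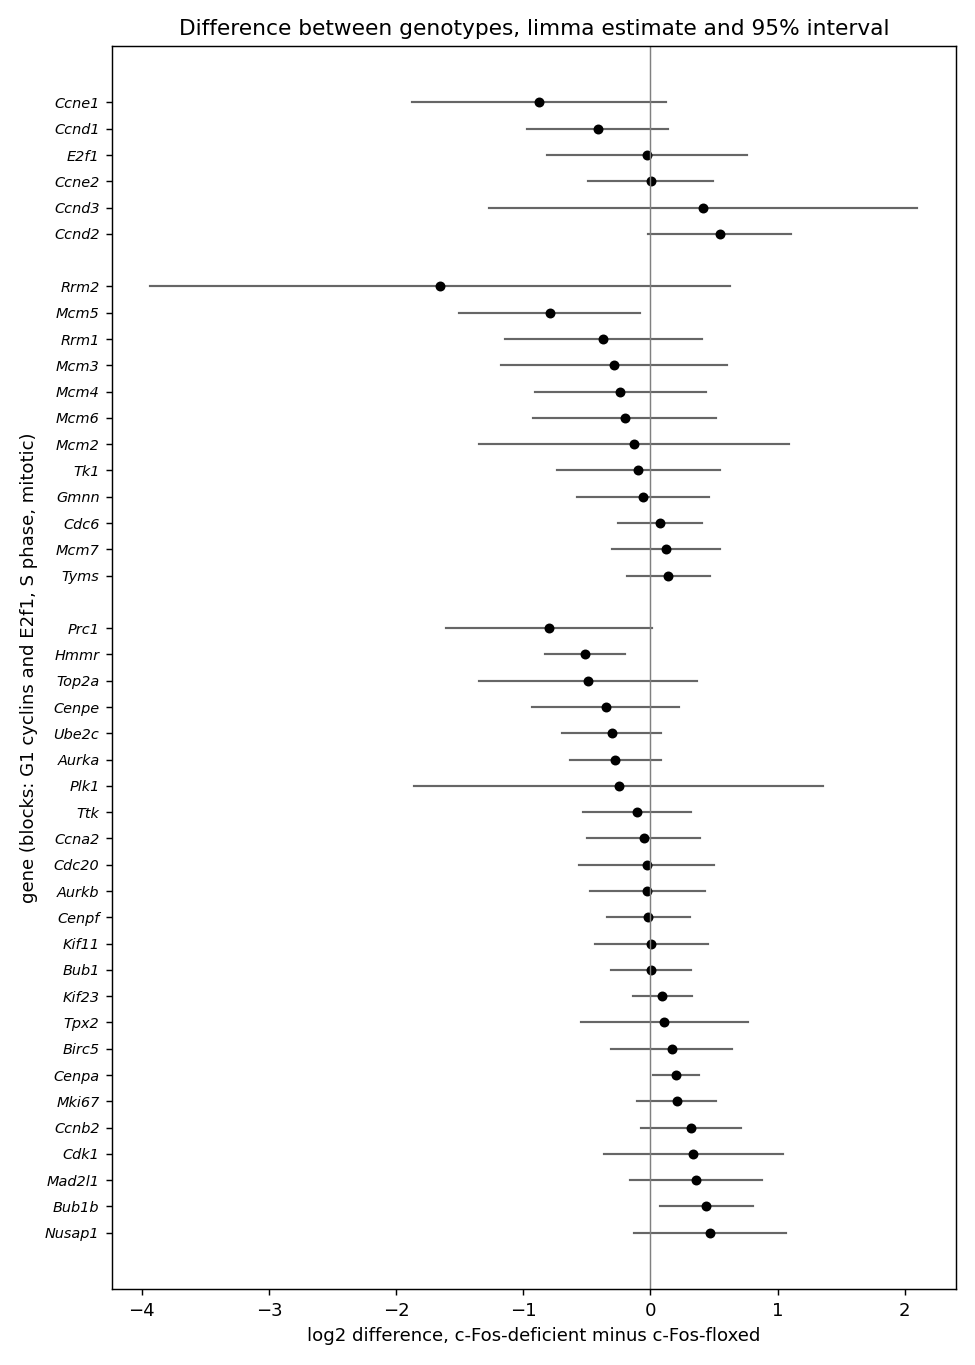
The log2 difference, c-Fos-deficient minus c-Fos-floxed (horizontal axis), of each of 42 genes (rows, in blocks of G1, S phase and mitosis) with its unadjusted 95% confidence interval from limma (lines). The intervals of Mcm5, Hmmr, Bub1b and Cenpa leave out 0, and that of Rrm2 runs from -3.93 to 0.62.

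Among the G1 genes, Ccnd1, the cyclin D that Ras signalling is known to induce, had levels of -2.41, -2.01 and -1.99 in c-Fos-deficient specimens 6, 8 and 9, against -1.53, -1.49 and -2.15 in c-Fos-floxed specimens 2, 3 and 5. The difference was -0.41 (SE 0.223, adjusted p 0.536), and specimen 5 lay among the c-Fos-deficient values. Its paralog Ccnd2 was at -1.28, -0.41 and -0.67 in c-Fos-deficient specimens, against -1.29, -1.37 and -1.34 in c-Fos-floxed specimens, which gave a difference of 0.54 (adjusted p 0.432, limma). The groups of Ccnd2 did not overlap, but specimen 6 stood 0.01 from the nearest c-Fos-floxed value on the log2 scale. The third D cyclin, Ccnd3, spread over 2.43 log2 units, at -2.57, -2.90 and -1.07 in c-Fos-deficient and -2.73, -1.55 and -3.50 in c-Fos-floxed specimens. Its groups overlapped, and its difference of 0.41 turned to -0.14 without specimen 9.

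Ccne1, the cyclin E that brings Cdk2 to the start of S phase, had levels of -0.45, -1.29 and -0.61 in c-Fos-deficient specimens, against 0.45, 0.52 and -0.70 in c-Fos-floxed specimens. Specimens 2 and 3 were the only papillomas with Ccne1 above the reference, while specimen 5 lay within the c-Fos-deficient range. The difference was -0.88 (SE 0.403, adjusted p 0.475, limma). It was -1.27 without specimen 5, but -0.62 without c-Fos-deficient specimen 8 and -0.66 without c-Fos-floxed specimen 3. The paralog Ccne2 showed no such split, at -0.95, -0.82 and -1.34 in c-Fos-deficient and -0.89, -0.87 and -1.35 in c-Fos-floxed specimens, a difference of 0.0012. E2f1 was at -2.30, -2.91 and -2.12 in c-Fos-deficient specimens, against -2.37, -1.95 and -2.92 in c-Fos-floxed specimens. Both groups of E2f1 covered nearly the same range, with a difference of -0.03 (adjusted p 0.975, limma).

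S phase genes had the largest share of differences below 0 among the roles. The difference was negative in 9 of 12, beside 44.9% of all features, with a median of -0.17 and a mean of -0.29. In 0 of 12 did the groups not overlap, beside 20.0% of all features. The range within a group exceeded the difference in 12 of 12. Mcm5, a subunit of the replicative helicase, was at -1.69, -1.70 and -1.10 in c-Fos-deficient specimens, against -0.42, -0.46 and -1.23 in c-Fos-floxed specimens. The difference was -0.79 (SE 0.286, 95% interval -1.50 to -0.08), with an adjusted p of 0.379 in limma, and only specimens 9 and 5 crossed between the groups. The other 5 subunits of the helicase gave -0.13 (Mcm2), -0.28 (Mcm3), -0.24 (Mcm4), -0.20 (Mcm6) and 0.12 (Mcm7). Their adjusted p-values were all above that of Mcm5.

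Mcm2 shows how far the helicase genes varied among mice of 1 genotype. Its levels were -2.28, -3.48 and -2.06 in c-Fos-deficient specimens and -2.49, -1.82 and -3.11 in c-Fos-floxed specimens, which spans 1.42 and 1.30 log2 units within the groups. Mcm6 was at -1.95, -2.92 and -2.39 in c-Fos-deficient specimens, against -2.07, -1.99 and -2.59 in c-Fos-floxed specimens. Specimens 8 and 5 were the lowest of their groups for both genes. Mcm7 was tighter, at -1.32 in each of the 3 c-Fos-deficient specimens, against -1.17, -1.36 and -1.80 in c-Fos-floxed ones.

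Ribonucleotide reductase, which makes the deoxynucleotides for replication, gave the widest spread. Its regulated subunit Rrm2 was at -0.53, -1.35 and -4.05 in c-Fos-deficient specimens 6, 8 and 9, against -0.04, -0.18 and -0.74 in c-Fos-floxed specimens 2, 3 and 5. The difference of -1.65 (SE 0.916, adjusted p 0.547, limma) was -0.62 without specimen 9. Both arrays of specimen 9 gave the low value, -4.10 in Cy3 and -4.00 in Cy5. The partner subunit Rrm1 did not follow it, at -0.90, -1.97 and -1.14 in c-Fos-deficient and -0.72, -0.89 and -1.28 in c-Fos-floxed specimens, a difference of -0.37. Specimen 8 was the lowest for Rrm1, and the difference was -0.06 without it and -0.59 without specimen 6.

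The nucleotide enzymes Tyms and Tk1 and the licensing factor Cdc6 were close between the genotypes. Tyms, thymidylate synthase, was at -1.06, -0.98 and -1.22 in c-Fos-deficient specimens, against -1.05, -1.18 and -1.46 in c-Fos-floxed specimens, and its 95% interval ran from -0.19 to 0.47. Tk1 was at -0.38, 0.05 and -0.46 in c-Fos-deficient and -0.64, 0.22 and -0.08 in c-Fos-floxed specimens. Cdc6, which loads the helicase onto origins, was at -0.54, -0.30 and -0.64 in c-Fos-deficient and -0.49, -0.46 and -0.75 in c-Fos-floxed specimens. The groups of all 3 genes overlapped. Gmnn, the geminin that blocks a second round of licensing, had a difference of -0.06.

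The mitotic genes split evenly, 12 below 0 and 12 above, with a median difference of -0.01. Hmmr, a spindle protein first described as a hyaluronan receptor, had the smallest unadjusted p of the 42 genes. It was at -2.08, -1.67 and -1.86 in c-Fos-deficient specimens, against -1.28, -1.32 and -1.46 in c-Fos-floxed specimens, and the groups did not overlap. The difference was -0.51 (SE 0.126, 95% interval -0.83 to -0.20), a ratio of 0.70 between the genotypes, with an adjusted p of 0.245 in limma. The value rests on 2 probes with unequal differences of -0.16 and -0.87.

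Prc1, which bundles microtubules of the central spindle, was at -2.04, -3.04 and -2.30 in c-Fos-deficient specimens, against -1.49, -1.37 and -2.13 in c-Fos-floxed specimens. The difference was -0.80 (SE 0.326, adjusted p 0.430, limma), from 2 probes at -0.71 and -0.88, while the third probe, which lacked a value in specimen 8 and was not averaged, gave -0.19. Specimen 5 again lay within the c-Fos-deficient range. Plk1 was at -2.44, -3.55 and -1.42 in c-Fos-deficient specimens and -2.18, -1.45 and -3.03 in c-Fos-floxed specimens. Its groups overlapped, like those of Ccnd3, E2f1 and Mcm2. In all 4 of these genes specimen 9 was the highest c-Fos-deficient value and specimen 3 the highest c-Fos-floxed one, with specimens 8 and 5 the lowest of their groups.

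Bub1b and Cenpa were the 2 members with higher values and an unadjusted p under 0.05 in limma. Bub1b, the checkpoint protein BubR1, was at -1.29, -1.28 and -1.71 in c-Fos-deficient specimens, against -1.93, -1.72 and -1.94 in c-Fos-floxed specimens. The groups did not overlap, by a gap of 0.01 between specimens 9 and 3, and the difference was 0.44 (SE 0.148, adjusted p 0.352, limma). Cenpa, the histone variant that marks centromeres, was at -1.33, -1.40 and -1.39 in c-Fos-deficient specimens, against -1.51, -1.64 and -1.57 in c-Fos-floxed specimens. Its difference was small, at 0.20 (SE 0.0718, adjusted p 0.373, limma), and it had the second smallest range over the 6 papillomas, 0.31 log2 units. Other checkpoint and kinetochore genes ran both ways. The checkpoint kinases Bub1 (0.01) and Ttk (-0.10), and Mad2l1 (0.36), gave differences with adjusted p-values of 0.987, 0.814 and 0.563 in limma, in that order. The differences of Cenpe and Cenpf were -0.35 and -0.02.

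The proliferation markers Mki67, Top2a and Cdk1 did not separate the genotypes, and Pcna was not analysed. Mki67 was at -1.30, -0.95 and -1.35 in c-Fos-deficient specimens, against -1.35, -1.47 and -1.40 in c-Fos-floxed specimens, a difference of 0.21 (SE 0.126, 95% interval -0.11 to 0.52, adjusted p 0.581). Only specimen 8 stood clear of the others, and the difference was 0.08 without it. Top2a was at -0.26, -1.10 and -1.60 in c-Fos-deficient and -0.38, -0.42 and -0.67 in c-Fos-floxed specimens, a difference of -0.49 (adjusted p 0.617), which was -0.19 without specimen 9 and -0.86 without specimen 6. Cdk1 was at -0.47, -1.11 and -1.59 in c-Fos-deficient and -1.31, -1.46 and -1.42 in c-Fos-floxed specimens, a difference of 0.34 (adjusted p 0.669), which was 0.04 without specimen 6 and 0.60 without specimen 9. For both genes the c-Fos-deficient specimens spread over more than 1 log2 unit and enclosed all 3 c-Fos-floxed values.

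Ccnb2, a mitotic cyclin that activates Cdk1, was the last of the 5 genes without overlap, at -0.67, -0.24 and -0.79 in c-Fos-deficient specimens, against -0.95, -0.80 and -0.90 in c-Fos-floxed specimens. Specimens 9 and 3 were 0.01 apart, and the difference was 0.32 with an adjusted p of 0.506. Ccna2, the cyclin of S phase and G2, was at -0.05 in difference, and the Aurora kinases at -0.28 (Aurka) and -0.03 (Aurkb). Nusap1, a microtubule-binding protein of the spindle, had the highest difference among the mitotic genes, 0.47 (adjusted p 0.518). The differences of Kif11, Cdc20, Cenpf and Tpx2 lay between -0.03 and 0.11. Cenpe gave -0.35 and Ube2c -0.30, and Birc5, measured in 2 c-Fos-deficient specimens, gave 0.17.

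S phase and mitotic genes were then set against each other within each papilloma. The S phase median was -0.98, -1.33 and -1.27 in c-Fos-deficient specimens 6, 8 and 9, against -0.70, -0.80 and -1.32 in c-Fos-floxed specimens 2, 3 and 5. The mitotic median, over the 23 complete genes, was -1.22, -1.10 and -1.43 in c-Fos-deficient and -1.15, -1.32 and -1.42 in c-Fos-floxed specimens. The mitotic medians of the groups overlapped, while the S phase medians of specimens 2 and 3 were above the other 4. The S phase minus the mitotic median was 0.24, -0.23 and 0.16 in c-Fos-deficient specimens (mean 0.05 ± 0.25, SD, n = 3), against 0.44, 0.52 and 0.10 in c-Fos-floxed specimens (mean 0.35 ± 0.22, SD, n = 3). The groups overlapped through specimen 5, and no p is given for a median over chosen genes. The longer lists described below did not repeat the contrast. Other replication genes had medians of -1.08, -0.89 and -1.33 in c-Fos-deficient and -1.09, -1.04 and -1.39 in c-Fos-floxed specimens, with specimen 8 the highest. Other mitosis genes had -1.11, -1.12 and -1.24, against -1.04, -1.03 and -1.40 in that order of specimens.

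**Figure D3:**
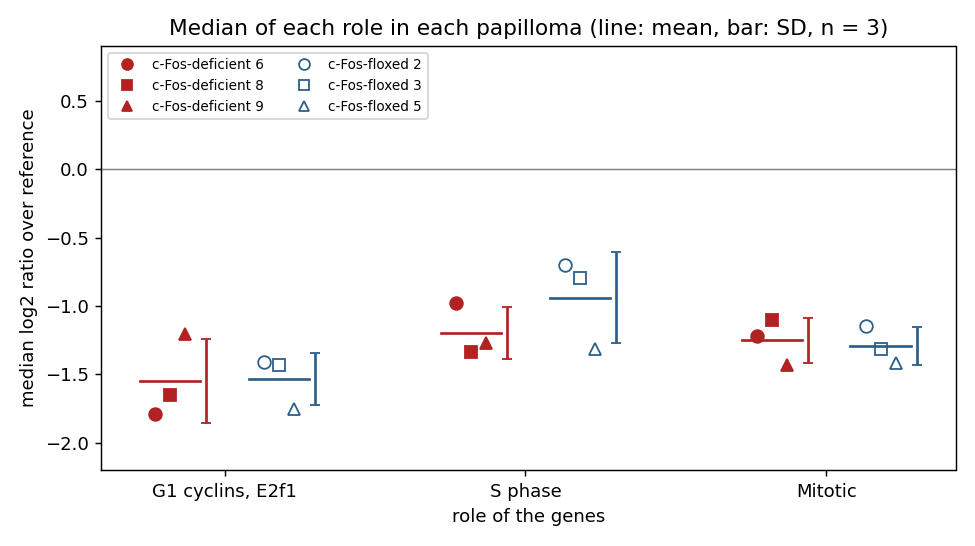
The median log2 ratio over reference (vertical axis) of G1, S phase and mitotic genes (horizontal axis) in each papilloma, c-Fos-deficient in filled red left of c-Fos-floxed in open blue, with the mean (line) and SD (bar, n = 3) of each group. In S phase genes the c-Fos-floxed specimens 2 and 3, at -0.70 and -0.80, lie above the other 4 papillomas, and c-Fos-floxed specimen 5, at -1.32, lies among the c-Fos-deficient ones.

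Specimen 5 stood apart from the other c-Fos-floxed papillomas in these genes. It was the lowest of the 3 in 32 of 41 complete members (78.0%), in 11 of 12 S phase genes and in 16 of 23 mitotic genes, beside 36.7% of all features. The same held for the longer lists of the pathway, in 29 of 35 other replication genes and 38 of 46 other mitosis genes. Without specimen 5 the median difference of the S phase genes was -0.39 and that of all 42 genes was -0.17, and still 0 of 42 passed the adjusted threshold. The S phase median difference moved with other specimens too, to -0.32 without c-Fos-deficient specimen 6, -0.04 without c-Fos-deficient specimen 8 and -0.02 without c-Fos-floxed specimen 3. Among c-Fos-deficient papillomas specimen 9 was the lowest in 22 of 41 (53.7%), beside 43.1% of all features.

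The sign of the difference was opposite in Cy5 and Cy3 for 6 of 42 genes, beside 26.1% of the features with values on every specimen. These were Ccne2, E2f1, Cdc6, Aurkb, Kif11 and Cenpf, whose differences were at most 0.07 in size. The 2 largest, Rrm2 and Ccne1, were -1.74 and -0.89 in Cy5 and -1.57 and -0.86 in Cy3. Ccnd1 depended most on the dye among the G1 genes, at -0.66 in Cy5 and -0.17 in Cy3, and among the mitotic genes Cdk1 was at 0.54 in Cy5 and 0.13 in Cy3.

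**Figure D4:**
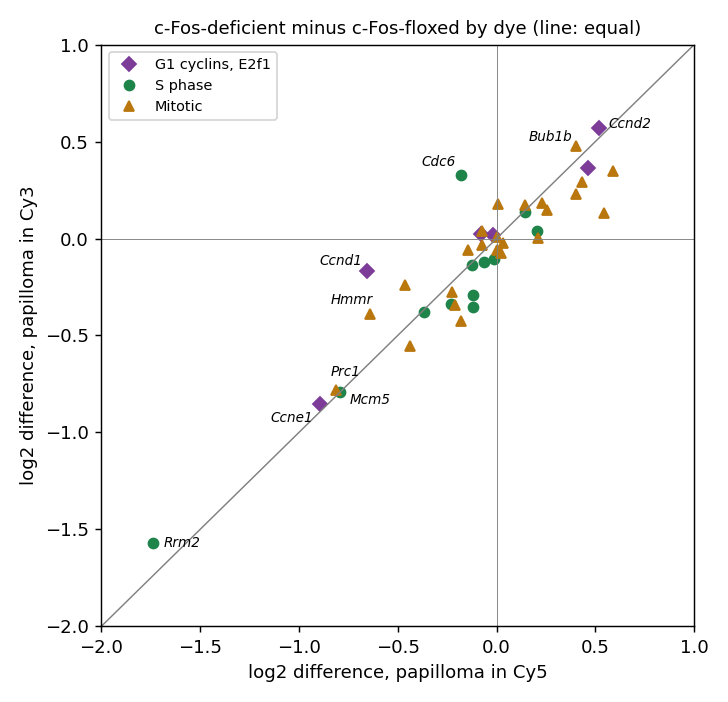
The log2 difference, c-Fos-deficient minus c-Fos-floxed, from arrays with the papilloma in Cy5 (horizontal axis) and in Cy3 (vertical axis) for 42 genes, with markers by role and a line of equality. Rrm2 at -1.74 and -1.57 is far out along the line, and Cdc6 at -0.18 and 0.33 is the farthest into a quadrant of opposite signs.

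The rest of the pathway, in lists of genes that are not members, lay at like levels. Of 37 other replication genes tested, 33 were lower than the reference and 1 was higher, with a median of -1.20, and of 48 other mitosis genes 45 were lower and 1 was higher, with a median of -1.22. Other G1 regulators (14 of 18 lower, 1 higher, median -0.74) and cell cycle inhibitors (12 of 16 lower, 1 higher, median -0.69) were nearer to the reference. The exceptions that were called higher were Orc5, a subunit of the origin recognition complex (0.15), Melk, a kinase of dividing cells (0.11), Rb1, the retinoblastoma protein that holds E2F (0.76), and Btg1, an antiproliferative gene (0.84). Rb1 and Btg1 were above 0 in both dyes, at 1.17 and 1.11 in Cy5 and 0.35 and 0.57 in Cy3. Orc5 and Melk were above 0 with the papilloma in Cy5 (0.34 each) but below 0 in Cy3 (-0.04 and -0.11).

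Between the genotypes, none of these 4 lists held a gene that passed the adjusted threshold. Median differences were 0.05 for other replication genes, 0.04 for other mitosis genes, -0.21 for other G1 regulators and -0.18 for inhibitors. The S phase members' share below 0, 9 of 12, was not met in the other replication genes, 14 of 37. Pttg1 and Espl1, the securin and separase pair that controls the parting of sister chromatids, both had higher values in c-Fos-deficient papillomas. Pttg1 was at -1.03, -0.97 and -1.26 in c-Fos-deficient specimens, against -1.60, -1.57 and -1.66 in c-Fos-floxed specimens, a difference of 0.52 (SE 0.100, adjusted p 0.212). Espl1 was at -1.48, -1.28 and -1.48 in c-Fos-deficient specimens, against -1.96, -1.80 and -2.04 in c-Fos-floxed specimens, a difference of 0.52 (adjusted p 0.212). The groups of both genes did not overlap. This held for 6 of the 46 complete genes of the list of other mitosis genes (13.0%), beside 20.0% of all features. An unadjusted p under 0.05 in limma was found for 8.33% of that list, beside 11.9% of all features.

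Mad1l1, which encodes the checkpoint protein Mad1, had the largest difference among the other mitosis genes and was the only one of that list over 1 in size. It was at -2.01, -0.90 and 0.10 in c-Fos-deficient specimens, against 1.07, 1.06 and 0.17 in c-Fos-floxed specimens. The groups did not overlap, with specimens 9 and 5 close together, and the difference was -1.70 (SE 0.576, adjusted p 0.354, limma). Among replication genes, Rfc3, a clamp loader subunit, was at -0.82, -0.60 and -0.80 in c-Fos-deficient and -1.19, -1.12 and -1.42 in c-Fos-floxed specimens (difference 0.50, adjusted p 0.236). Gins2 and Pola1, parts of the replication fork, gave 0.33 and 0.23, and Tacc3, a spindle protein bound by Aurora A, gave -0.45 (adjusted p 0.316, limma). Rfc3 and Pttg1 passed with the specimen as a random block, at adjusted p-values of 0.0449 and 0.0290. Their differences were the same in that limma fit, and its smaller p-values draw partly on repeat arrays of the same mice.

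Among G1 regulators, Ccng1, a cyclin that p53 induces, was at -1.69, -2.04 and -2.00 in c-Fos-deficient specimens, against -0.51, -1.02 and -0.84 in c-Fos-floxed specimens. Its difference of -1.13 (SE 0.169) had an adjusted p of 0.194 in limma and of 0.00776 with the random block, a fit that counts repeat arrays of a mouse. E2f7, a repressive E2F factor, gave -0.54 (adjusted p 0.265), and Tfdp2, a dimer partner of E2F, gave -0.28 with specimen 9 missing. Mycn, a Myc factor, was at 1.18, 1.78 and 0.40 in c-Fos-deficient specimens, against -0.24 and 0.02 in c-Fos-floxed specimens 3 and 5, with specimen 2 missing (difference 1.23, adjusted p 0.391, limma). The inhibitor Wee1, the kinase that keeps Cdk1 off, was at -1.82, -1.88 and -1.67 in c-Fos-deficient specimens, against -1.43, -1.23 and -1.30 in c-Fos-floxed specimens (difference -0.47, SE 0.095, adjusted p 0.212). The difference of Wee1 was -0.75 in Cy5 and -0.19 in Cy3. Cdkn1a, the p21 inhibitor, varied more within the groups than between them, at -1.22, -0.52 and 0.58 in c-Fos-deficient and 0.06, 0.31 and -0.31 in c-Fos-floxed specimens. The antiproliferative genes Tob1 and Btg2 gave -0.25 and 0.44, with adjusted p-values of 0.266 and 0.532.

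Markers of other compartments varied between the papillomas as well. Hair follicle markers had medians of 1.03, 2.12 and 0.33 in c-Fos-deficient specimens, against 0.38, 0.28 and 0.31 in c-Fos-floxed specimens. Specimen 9 thus lay within the c-Fos-floxed range. The difference was positive in 11 of 12 of these markers. Over all 18861 features, 10384 differences were positive and 8477 negative. Sebaceous gland markers had medians of -0.09, 0.58 and -0.62 in c-Fos-deficient specimens, against -0.90, -1.22 and -0.88 in c-Fos-floxed specimens, with 6 of 8 positive. Specimen 8 was the highest for both lists and had the lowest S phase median of the 6 papillomas, at -1.33 beside -1.32 in specimen 5. The longer list went the other way: specimen 8 had the highest median of the other replication genes, -0.89, with the rest between -1.39 and -1.04. Its mitotic median, -1.10, was also the highest of the 6. Basal keratinocyte markers, the compartment that divides in normal epidermis, had medians of 1.94, 2.14 and 3.10 in c-Fos-deficient specimens, against 3.51, 3.30 and 3.42 in c-Fos-floxed specimens, with 4 of 7 negative. These medians were the level of Itgb4 alone, except in specimen 2, where it was that of Krt5. The negative differences were Col17a1 (-1.44), Itga6 (-1.36), Itgb4 (-1.08) and Trp63 (-0.41). The keratins Krt5 (0.15), Krt14 (0.13) and Krt15 (0.14) were the 3 that were positive. Endothelial markers had a median difference of -0.42 and melanocyte markers of 0.15, while T and NK cell markers (0.09), macrophage markers (0.05) and fibroblast markers (0.04) were nearer to 0. None of these markers passed the adjusted threshold, and their part in the values of the cell cycle genes was not tested.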

How the data were processed

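Papilloma RNA, isolated with TRIzol and amplified with T7 polymerase per the labels' protocols, and a reference RNA were hybridised together on 12 two-colour arrays, 2 per mouse with exchanged dyes. The authors' deposited table holds 1 log ratio per probe and array, read here as log2. Its log base and the authors' background correction and normalization were not given in the sources used here. Folds hold for base 2. Array medians lay between -0.16 and -0.01, and 20811 to 26490 of 37632 probes had a value on an array (55.3% to 70.4%). The direction is likely papilloma over reference: all 66 pairs of arrays correlated positively (r from 0.705 to 0.963), so swapped arrays had already been turned, and keratinocyte markers were positive. No sign was flipped. Spot signals were not analysed here, so no probe is called above or below background.

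Platform symbols were brought up to date with the RefSeq gene table of GRCm38.p6 (12801 of 16964 were current, 4006 were updated and 157 kept their old form). Both arrays of a specimen were averaged. The probes of a gene with values in every specimen were averaged, and a feature was tested with at least 2 specimens in each group. The groups were compared, and the mean of both groups was set against 0, with limma 3.58.1 (lmFit and eBayes, R 4.3.3, two-sided). Benjamini-Hochberg adjustment ran over all 18861 features, with a threshold of 0.05. The script was tested on simulated data with changes of 3 log2 units, larger than any member difference, and spreads capped at their median. That test checks the code and does not show the power in these data. The other tools were statmod 1.5.0, Python 3.11.15, pandas 2.3.3 and matplotlib 3.10.9. The 16 alternatives were median-centred or quantile-normalized arrays, only probes complete over 12 arrays, specimens kept with 1 array, 1 probe per gene, each dye alone, a fit to single arrays (dye as a term, specimen as random block), array weights, robust eBayes with a trend, and each specimen left out. Genes given with values in every specimen were, per role, the 4 with the smallest unadjusted p and the 2 highest and 2 lowest levels. Mki67, Top2a, Ccnd1 and Cdk1 were given in any case. In each of the other pathway lists the 3 with the smallest p were named, some by their difference alone, and Cdkn1a was given with its values. Mcm7, Ccnb2, Mad1l1, Mycn and the single differences of further members were added after their values were seen. The members and lists were chosen with earlier results of these data known.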

Additional observations from a re-analysis of the deposited data

How the results depend on the processing

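Precision is limited by 3 mice per group and by values without spot signals. No member differed between the genotypes under any of the 16 alternatives, and 36 to 41 of 42 were called lower than the reference. All features called numbered 392 with the specimen as a random block (correlation 0.602), where Fos (-2.98) had an adjusted p of 0.00124, and 1 with Cy3 alone, against 0 in the main comparison. The random block fit counts single arrays, 2 per mouse, so its calls rest partly on technical repeats and not on more mice. With Cy3 alone the median level of all members was -1.32, and with Cy5 alone 2 members were called higher. Leaving out 1 specimen at a time moved the median difference of all members between -0.17 and 0.05. Small differences turned sign, and the cause was not tested. Ccne2 was at -0.078 with 1 probe, -0.063 with array weights and -0.016 in Cy5. Cdc6 was at -0.18 in Cy5. E2f1 was at 0.023 in Cy3 and 0.13 with quantile normalization. Kif23 was at -0.013, Mcm2 at 0.0013 and Tk1 at 0.22 with array weights, and Mcm2 at 0.019 with quantile normalization. The level of Kif23 turned to 0.053 with centred arrays and 0.26 in Cy5, and those of Tk1 and Ube2c to 0.15 and 0.29 in Cy5. Ube2c lost its call under 8 alternatives that kept its sign. Over single specimens left out, the difference ranged from -0.14 to 0.94 for Ccnd3, -0.16 to 0.15 for Ccne2, -0.025 to 0.15 for Cdc6, -0.89 to 0.013 for Cdkn1a, -0.28 to 0.20 for E2f1, -0.45 to 0.30 for Mcm2, -0.44 to 0.045 for Mcm6, -0.77 to 0.29 for Plk1 and -0.33 to 0.10 for Tk1. No paired analysis was possible because the groups share no specimen numbers.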
